A study of Mus musculus with 19 samples.

Results

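The loss of the miR-302 microRNA cluster was examined in mouse cells that already lacked the miR-290 cluster. Double knockout (KO) cells, genotype miR-290KO;miR-302KO, were compared with miR-290 KO cells, both labelled as induced pluripotent stem cells (iPSC). Each genotype had 4 libraries from 2 colonies, with 2 libraries per colony, so 8 of the 19 libraries of the series were compared. These members were chosen by genotype and cell type as labelled, not by a measured value. This comparison and the gene lists were chosen with earlier results of these data known. All 8 came from embryonic fibroblasts (MEF) reprogrammed with Oct4, Sox2 and Klf4, grown in medium with LIF and serum and collected more than 18 passages after reprogramming. Colonies were derived, cultured and prepared separately, per the design text, so the colony was taken as the replicate (n = 2). The 4 miR-302 KO iPSC libraries (2 colonies) entered the estimate of the spread, and with 3 wild-type (WT) iPSC libraries they gave the effect of miR-302 loss with miR-290 present. Those WT libraries are excepted from the statement on separate derivation and may share one. The 2 libraries of miR-290 KO embryonic stem cells (ESC) are given where they help to read a level.

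MicroRNAs are short RNAs that guide Argonaute proteins to messenger RNAs, mostly through bases 2 to 8 from their 5′ end, the seed, and so lower the level and translation of their targets. Both clusters are the main embryonic members of a microRNA family known for promoting the rapid G1-S transition of pluripotent cells and for raising the yield of reprogramming. Because several of their microRNAs carry one seed, either cluster can act on targets of the other.

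The mature sequences (RefSeq, build GRCm38.p6) show which seed the deleted clusters had in common. The miR-290 cluster lies on chromosome 7 and the miR-302 cluster on chromosome 3, both on the plus strand. Capitals mark the seed. The first 3 are from the miR-290 cluster and the rest from the miR-302 cluster.
miR-291a-3p, chr7:3218968-3218989: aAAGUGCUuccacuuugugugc
miR-294-3p, chr7:3220691-3220712: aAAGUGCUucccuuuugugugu
miR-295-3p, chr7:3220815-3220837: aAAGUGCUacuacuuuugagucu
miR-302b-3p, chr3:127545275-127545297: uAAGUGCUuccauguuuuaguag
miR-302d-3p, chr3:127545665-127545687: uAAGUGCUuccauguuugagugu
miR-302c-3p, chr3:127545406-127545427: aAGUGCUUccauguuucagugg
miR-367-3p, chr3:127545779-127545800: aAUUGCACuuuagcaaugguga
In these, miR-291a-3p, miR-294-3p, miR-295-3p, miR-302b-3p and miR-302d-3p share AAGUGCU. In miR-302c-3p the same letters sit 1 base closer to the 5′ end, and miR-367-3p has an unrelated seed. Within the miR-290 cluster, miR-290a-3p has AAGUGCC, miR-291b-3p AAGUGCA and miR-293-3p GUGCCGC. The messenger RNA site for the shared seed is its reverse complement, AGCACTT in DNA letters. In 3′ untranslated regions (UTR) of genes that are described below, it lies as follows, with the site in capitals and coordinates in GRCm38.
Cdkn1a, chr17:29100480-29100509, plus strand: ttgaataccgtgggtgtcaaAGCACTTagt
Lats2, chr14:57691084-57691113, minus strand: aattagtacagtatggaaagAGCACTTatt
Tgfbr2, chr9:116087769-116087798, minus strand: ctttttatatcaaaacctaaAGCACTTatt
Ccnd2, chr6:127129338-127129367, minus strand: ataaaccattccattagaaaAGCACTTtga
Nfib, chr4:82296545-82296574, minus strand: agacggtagaccagcattgcAGCACTTaca
Rbl2, chr8:91123810-91123839, plus strand: atatgtgtatttttcaataaAGCACTTata
Lefty2, chr1:180897897-180897926, plus strand: cttgtccatcacccagtttaAGCACTTaca
Where a gene holds several sites, as Cdkn1a, Lats2, Tgfbr2 and Nfib do, not all are printed. All but Ccnd2 among the printed sites have an A after the site, a base that is common at effective sites. In miR-302b-3p and miR-302d-3p the first base, u, can also pair with it. The sites of Cdkn1a, Lats2 and Tgfbr2 that are not printed lack this A.

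Each library read the 3′ end of polyadenylated RNA (QuantSeq), and levels are given as CPM, the reads of a gene scaled to a common library total, for genes whose reads could be recovered from the deposited log2 values. The 4 double KO libraries held 64482084 recovered reads in all and the 4 miR-290 KO libraries 68827387, with 6370963 to 24751862 per library. At 3 reads over a group, the floor was 0.0473 CPM in the double KO and 0.0435 CPM in the miR-290 KO. Per-library values below stand in the order colony 1 library 1, colony 1 library 2, colony 2 library 1, colony 2 library 2. Means carry the SD over the 2 colony means. A change is a log2 difference, double KO minus miR-290 KO, with its standard error (SE), and a gene was called at an adjusted p under 0.05 (limma, Benjamini-Hochberg over 12778 genes). Neither deletion was checked with these libraries. Larp7 (chr3:127536714-127553349), whose span holds the miR-302 cluster, had 313.3 ± 70.3 CPM in the double KO and 382.6 ± 109.7 in the miR-290 KO, and its libraries overlapped (change −0.27, SE 0.28, adjusted p 0.522). Among the miR-302 KO libraries, which enter only the spread and the WT contrast, the Y-linked Ddx3y was at 0, 13.1, 12.2 and 0.296 CPM, so the libraries of each of those colonies differed in it.

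Between the double KO and the miR-290 KO, 3154 of 12778 genes (24.7%) differed. Of these, 1515 rose (11.9% of all genes) and 1639 fell (12.8%). Sex-linked genes and whole chromosomes differed too, as given below, and other differences between the lines and the genotype cannot be told apart. The changes were large and steeper downward: 361 genes rose by at least 3 on the log2 scale and 927 fell by as much, and at 5 or more the numbers were 71 and 326. In 219 of the genes that fell, the double KO had 0 reads. All 4 double KO libraries lay above all 4 miR-290 KO libraries in 3159 genes (24.7%) and below them in 2740 (21.4%), and 3114 of the called genes were among these. The median change of all genes was 0.03. With 2 colonies a group, the number of calls depended on each of them: it was 1675 and 2035 without double KO colony 1 or 2, and 1375 and 1396 without miR-290 KO colony 1 or 2. Without the miR-302 KO colonies it was 3520.

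The genes that establish and mark pluripotent cells were low in the double KO. Of 17 core pluripotency genes, 12 fell, 1 rose and 4 did not pass, with a median change of −3.41, against 12.8% of all genes that fell and a median of 0.03. Pou5f1, which encodes Oct4, was at 30.2, 24.2, 24.1 and 21.4 CPM in the double KO and at 914, 697, 2458 and 1501 CPM in the miR-290 KO. The groups did not overlap, and the mean of 25.0 ± 3.16 against 1392 ± 830 CPM gave a change of −5.63 (SE 0.42, adjusted p 0.000187). In WT iPSC Pou5f1 was at 702, 503 and 747 CPM and in miR-290 KO ESC at 872 and 677 CPM, so the miR-290 KO iPSC libraries lay within or above the range of these cells. Nanog, a transcription factor of the same circuit, was at 2.54, 2.87, 2.37 and 1.82 CPM against 676, 454, 408 and 495 CPM. That is 2.40 ± 0.43 against 508 ± 80.0 CPM, a fall by 7.63 (SE 0.36, adjusted p 2.87e-05).

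Sox2 and Klf4, the remaining reprogramming factors, also fell, with smaller changes. Sox2, the partner of Oct4, was at 36.6, 20.1, 48.9 and 39.6 CPM in the double KO, against 378, 285, 422 and 404 (−3.41, SE 0.29, adjusted p 0.000334). Klf4 was at 7.06, 5.10, 17.9 and 12 CPM against 141, 59.8, 133 and 88.2 (−3.39, SE 0.42, adjusted p 0.00155). A 3′ library does not tell transcripts of the native genes from those of the introduced factors unless their 3′ ends differ, and the construct used is not given in the sources used here. Utf1, a chromatin protein of undifferentiated cells, was at 0, 0.144, 0.0578 and 0.242 CPM against 153, 141, 180 and 182 (−9.43, SE 0.32, adjusted p 1.13e-05). Dppa2 and Dppa4, partners that open developmental promoters, changed by −8.87 and −7.86. Tdgf1, the Nodal co-receptor Cripto, fell by 5.93 and Sall4, a zinc finger factor, fell by 3.18. Dppa5a, for which no reads were recovered and which has close copies in the genome, fell by 9.46.

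A few genes that are usually grouped with these did not follow. L1td1, an RNA-binding protein derived from a LINE-1 element, was at 553, 518, 654 and 696 CPM in the double KO against 487, 451, 550 and 431 (0.33, adjusted p 0.334). Fgf4, a growth factor secreted by pluripotent cells, was at 126, 165, 217 and 220 CPM against 338, 254, 208 and 174, with overlapping libraries (−0.41, adjusted p 0.363). Gdf3, a TGF-beta family ligand, rose from 217, 183, 355 and 255 to 501, 563, 374 and 451 CPM (0.93, SE 0.27, adjusted p 0.0429). Gdf3 lies on chromosome 6, whose genes had a median change of 0.55, and no gene of the core list was called higher once chromosome medians were removed or any of the 4 colonies compared was left out. Fbxo15 and Nr0b1 did not pass either.

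Naive-state genes, which mark the ground state of mouse pluripotent cells, all fell: 13 of 13 were lower, with a median change of −5.87 and medians between −6.40 and −5.81 over the 4 pairings of a double KO colony with a miR-290 KO colony. Esrrb, an orphan nuclear receptor that can replace Nanog, was at 0.255, 0.934, 0.636 and 0.364 CPM in the double KO and at 264, 230, 188 and 171 CPM in the miR-290 KO (−8.36, SE 0.26, adjusted p 9.62e-06). Zfp42, also called Rex1 and widely used as a reporter of the naive state, was at 0.446, 0.718, 0.520 and 0.242 CPM against 186, 117, 139 and 154 (−7.94, SE 0.27, adjusted p 1.13e-05). No library of either group came near the other in these genes. Klf2 had 23.0, 21.9, 12.5 and 5.58 CPM against 1062, 842, 695 and 936 (−5.98). In Tfcp2l1 and Tbx3, targets of LIF signalling, double KO colony 2 kept a higher level than colony 1: Tfcp2l1 was at 0.827, 0.934, 7.23 and 9.39 CPM and Tbx3 at 0.446, 1.29, 7.46 and 7.58 CPM. Both remained below every miR-290 KO library, where Tfcp2l1 had at least 141 CPM and Tbx3 at least 88.9, and fell by 5.87 and 5.42.

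Genes of the later, formative and primed states were not higher in their place, where 11.9% of all genes rose and 12.8% fell. Of 10 measured, 6 fell and none rose, with a median of −3.38, and at any alternative run at most 1 rose. Foxd3, a forkhead factor needed to leave the naive state, had 0 reads in all 4 double KO libraries and 31.9, 20.7, 20.0 and 19.7 CPM in the miR-290 KO, which made it at least 506-fold lower. Pou3f1, also called Oct6, was at 0.127, 0.0718, 0.694 and 0.121 CPM against 19.2, 26.4, 9.99 and 13.3 (−5.60). Otx2, a factor of the primed epiblast, was at or below 0.216 CPM in the double KO and between 0.849 and 6.27 CPM in the miR-290 KO (−4.01). Zic2 fell by 2.74, while Lef1 (−0.22) and Sall2 (0.78) did not pass.

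Transcripts of both Lin28 genes, whose proteins block maturation of let-7 microRNAs and are made in undifferentiated cells, were below 1 CPM in the double KO. Lin28a was at 0.191, 0.575, 0.405 and 0.485 CPM in the double KO against 114, 146, 230 and 135 (−8.14, SE 0.38, adjusted p 2.87e-05). Its paralog Lin28b was at 0.573, 0, 0 and 0.0606 CPM against 21.1, 22.5, 28.2 and 27.6 (−6.73, SE 0.47, adjusted p 0.000131). Trim71, a ubiquitin ligase and let-7 target, fell by 1.97 (adjusted p 0.0286). Of 16 genes that make, use or control microRNAs, both Lin28 genes included, 3 fell and 1 rose, a share close to the 24.7% of all genes that were called. Ago1, an Argonaute, fell by 0.94 (adjusted p 0.0224) and Dicer1, which cuts the hairpins, did not pass (−0.84, adjusted p 0.0867). Tnrc6b, a partner of Argonautes, rose by 1.04 but was not called in 7 alternatives, among them those without double KO colony 1 or 2 or miR-290 KO colony 1.

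Of 16 genes for DNA methylation and its readers, 4 fell, 1 rose and 11 did not pass (median 0.08). Over all genes, 12.8% fell and 11.9% rose. Dnmt3l, a catalytically inactive partner of the methylating enzymes, was at 0.318, 0.359, 1.33 and 0.485 CPM in the double KO and at 500, 390, 479 and 404 CPM in the miR-290 KO (−9.34, SE 0.34, adjusted p 1.24e-05). Dnmt3b, which places new methyl groups, was at 5.79, 6.46, 6.30 and 6.61 CPM against 148, 109, 126 and 143 (−4.35, SE 0.24, adjusted p 5.11e-05), a level that varied little between colonies in either group. Of the TET enzymes, which start demethylation, Tet1 fell, Tet3 rose and Tet2 did not pass. Tet1 was at 15.3, 12.4, 10.5 and 5.46 CPM against 157, 68.6, 151 and 147 (−3.59, adjusted p 0.000713), and Tet3 at 30.8, 39.6, 31.4 and 34.7 CPM against 7.19, 3.97, 5.46 and 4.39 (2.70, SE 0.36, adjusted p 0.0022). Trim28, a corepressor, fell by 1.21. The maintenance enzyme Dnmt1 (−0.11, adjusted p 0.738) and Dnmt3a (0.28, adjusted p 0.527) did not pass.

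The ligand Nodal and its inhibitors fell together. Nodal was at 1.08, 2.44, 3.01 and 7.76 CPM in the double KO and at 93.5, 83.6, 68.6 and 66.1 CPM in the miR-290 KO (−4.70, SE 0.47, adjusted p 0.000606). The inhibitors Lefty1 and Lefty2, which Nodal itself induces, fell by 6.84 (SE 0.30, adjusted p 2.01e-05) and 9.21 (SE 0.27, adjusted p 9.62e-06). For these near-identical neighbours no reads were recovered and their shares may be mixed. Relative to the miR-290 KO mean, Lefty2 stood at −9.81, −9.26, −9.03 and −8.75 on the log2 scale in the 4 double KO libraries. Its UTR carries the site printed above, as that of Lefty1 does, and both are in the literature as targets of the shared seed, yet they were lower without it.

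Receptors and targets on the TGF-beta and BMP branches included genes that rose. Tgfbr2, the type II TGF-beta receptor, was at 20.2, 20.0, 22.4 and 17.8 CPM in the double KO and at 1.46, 5.73, 0.647 and 2.66 CPM in the miR-290 KO (3.24, SE 0.69, adjusted p 0.0141). Its level was even in the double KO, and the miR-290 KO libraries spread widely below it. It was not called without double KO colony 1 or 2 or miR-290 KO colony 2, nor with all 13 samples in the fit (adjusted p 0.0501). Bmpr2, a BMP receptor, had 72.6, 69.2, 61.5 and 70.8 CPM against 23.5, 18.8, 22.6 and 22.7 (1.64, adjusted p 0.00519). Id1, a target of BMP signalling, had 489.7, 422, 934 and 795.5 CPM against 365, 144, 145 and 107 (1.89). Bmp4 rose by 1.84 (adjusted p 0.0438), while Bmp7 fell by 4.54. Over the 28 measured genes of TGF-beta, Nodal and BMP signalling, 7 rose, 7 fell and 14 did not pass, with a median of 0.40. Of all genes, 11.9% rose and 12.8% fell. The 7 that rose came to 4 and 2 without double KO colony 1 or 2, and to 3 and 1 without miR-290 KO colony 1 or 2.

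Epithelial genes, which fibroblasts switch on early in reprogramming, were lower. Of 22 measured, 15 fell, none rose and 7 did not pass, with a median of −3.95, where 12.8% of all genes fell. Claudin 4 (Cldn4), a tight junction protein, was at 0.0636, 0.144, 0.231 and 0.121 CPM in the double KO and at 142, 288, 116 and 126 CPM in the miR-290 KO (−9.15, SE 0.34, adjusted p 1.31e-05). Keratin 18 (Krt18), an intermediate filament of simple epithelia, was at 0.127, 0.575, 0.289 and 0.0606 CPM against 67.1, 320, 56.3 and 94.0 (−8.16, SE 0.53, adjusted p 9.23e-05), and its partner Krt8 fell by 7.53. In the double KO, Cldn7 and the membrane protease gene Prss8 had no reads, which put them at least 105-fold and 150-fold below the miR-290 KO. Epcam, an adhesion molecule of epithelial and pluripotent cells, was at 3.69, 3.02, 4.80 and 5.27 CPM against 94.5, 123, 38.8 and 63.6 (−4.11, SE 0.41, adjusted p 0.000613).

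Cdh1, which encodes E-cadherin, separated the double KO colonies. It was at 9.93 and 16.2 CPM in colony 1 and at 101 and 120 CPM in colony 2, while the miR-290 KO libraries had 406, 503, 339 and 262 CPM. All 4 double KO libraries lay below the miR-290 KO ones (−3.29, SE 0.84, adjusted p 0.0274), but the call was lost in 6 alternatives, among them leaving out either miR-290 KO colony or either miR-302 KO colony.

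Mesenchymal genes were mixed, with strong rises in some of the best known. Of 12 measured, 5 rose, 1 fell and 6 did not pass, with a median of 0.75, where 11.9% of all genes rose and 12.8% fell. Vim, the intermediate filament vimentin, was at 3222, 3099, 2182 and 1774 CPM in the double KO and at 469, 381, 398 and 488 CPM in the miR-290 KO (2.53, SE 0.27, adjusted p 0.000795). Since WT iPSC had 156, 82.6 and 118 CPM, the miR-290 KO libraries already stood above WT. Zeb2, a repressor of E-cadherin, was at 37.3, 27.8, 21.4 and 17.2 CPM against 0.182, 2.90, 1.25 and 2.35 (4.20, SE 0.59, adjusted p 0.00256). Cdh2, N-cadherin, had 226, 168, 183 and 208 CPM against 20.9, 16.2, 50.4 and 33.2 (2.83, adjusted p 0.00683). The receptor kinase gene Axl had 67.3, 79.1, 213 and 214 CPM against 5.05, 8.94, 10.3 and 9.56 (3.91, adjusted p 0.00258). Snai2 rose by 3.11 (adjusted p 0.0362). The related regulators Zeb1 (0.23, adjusted p 0.781), Snai1 (−0.70) and Twist1 (0.74) did not pass, nor did fibronectin, Fn1, at 1015, 1017, 316 and 366 CPM against 349, 382, 334 and 418, where only double KO colony 1 stood above the miR-290 KO.

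Defining markers of the fibroblasts from which the cells were made were not higher in the double KO. Only 5 of the 17 listed were in the matrix. Of these Thy1 was at 0, 0, 0 and 0.606 CPM against 2.19, 4.03, 3.52 and 9.24 (−4.31, adjusted p 0.00587). Mmp2, a matrix protease, was at 0, 0, 0.173 and 0.0606 CPM against 12.1, 14.6, 16.1 and 12.8 (−6.20). Col1a1, the main collagen of fibroblasts, was at 0.191, 1.01, 0 and 0.364 CPM against 0.273, 0.945, 0 and 1.57 (adjusted p 0.671), near the floor in both groups. Pdgfrb fell by 4.20 but was not called in 6 alternatives, among them leaving out any of the 4 colonies, and Fbln1 did not pass (0.18). In such bulk libraries, fewer cells of a type and less RNA per cell cannot be told apart.

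Of 23 matrix and adhesion genes, 10 rose and 4 fell (median 1.01), where 11.9% of all genes rose and 12.8% fell. Cd44, the hyaluronan receptor, was at 231, 218, 781 and 781 CPM in the double KO and at 2.05, 4.16, 6.27 and 4.07 CPM in the miR-290 KO (6.71, SE 0.69, adjusted p 0.000691). Thbs1, the matrix protein thrombospondin 1, was at 214, 297, 103 and 61.0 CPM against 5.69, 9.26, 2.83 and 1.57 (5.11). Timp2, an inhibitor of matrix proteases, rose by 5.02. Timp3, of the same family, was at 57.1 and 78.7 CPM in double KO colony 1 and at 925 and 1027 CPM in colony 2, against 11.9, 20.9, 11.1 and 6.58 (4.44, adjusted p 0.0239). The basement membrane collagens Col4a1 and Col4a2 rose by 2.87 and 3.05, with Col4a2 at 323, 440, 334 and 381 CPM against 24.9, 65.9, 49.5 and 46.1. Loxl1, a crosslinking enzyme, fell by 4.72, and Spp1, osteopontin, by 5.72 from 290, 187, 131 and 143 to 0.318, 0.359, 29.7 and 19.2 CPM. Spp1 was not called in 6 alternatives, among them leaving out either miR-290 KO colony. The 10 rises came to 6 without double KO colony 2 or miR-290 KO colony 1 and to 4 without miR-290 KO colony 2.

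Contractile and actin-binding genes went both ways. Cnn1 (−5.20), Tpm2 (−5.18), Myl9 (−4.92) and Tagln (−3.37), which are typical of smooth muscle, fell, and Acta2, of the same kind, did not pass. Tagln, transgelin, had 5.28, 2.08, 1.97 and 0.97 CPM against 19.8, 33.3, 19.3 and 24.4. Cald1, caldesmon, rose from 177, 265, 296 and 230.1 to 744, 744, 569 and 592 CPM (1.47), and Vcl, Flna and Myh9 rose by 1.14, 1.01 and 0.85. Of 19 measured, 4 rose and 4 fell, where 11.9% and 12.8% of all genes did, and without miR-290 KO colony 1 these were 1 and 0. Tpm2, at 0, 0.144, 4.62 and 7.03 CPM against 20.9, 59.6, 45.2 and 41.8, was not called in 5 alternatives, among them without either miR-290 KO colony.

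The strongest rises by the naming rule were Xist, given with the sex-linked genes, and genes of no common pathway. Brinp1, a neural protein known as an inhibitor of cell cycle progression, was at 244, 334, 248 and 329 CPM in the double KO and at 0.819, 0.630, 1.82 and 0.470 CPM in the miR-290 KO (8.20, SE 0.66, adjusted p 0.000243). Hs3st3a1, a heparan sulfate sulfotransferase, was at 162, 206, 127 and 129.8 CPM against 1.00, 0.0630, 1.33 and 0.313 (7.92). Ly6a, the surface protein Sca-1, was at 1384, 1566, 1251 and 1170 CPM against 15.7, 5.16, 10.3 and 2.82 (7.55, SE 1.02, adjusted p 0.00217). Its neighbour in the same family, Ly6c1, rose by 7.22, and paralogs of this family can share reads. Ddr2, a collagen receptor, was at 144, 169, 85.0 and 90.7 CPM against 0.455, 1.64, 0.97 and 0.313 (7.10), and F5, a coagulation factor, rose by 7.07. Sprr2a2 (9.97), Sprr2a1 (7.37) and the protocadherin row Pcdha7-g (8.49) also rose. They belong to families of near-identical copies and had no recovered reads. In the miR-290 KO, 1 library lay far above the other 3 in Sprr2a2 and Pcdha7-g, and 1 far below the other 3 in Sprr2a1. Pcdha7-g was not called when miR-290 KO colony 1 library 2 or colony 2 was left out (6.62 in each case).

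**Figure D1:**
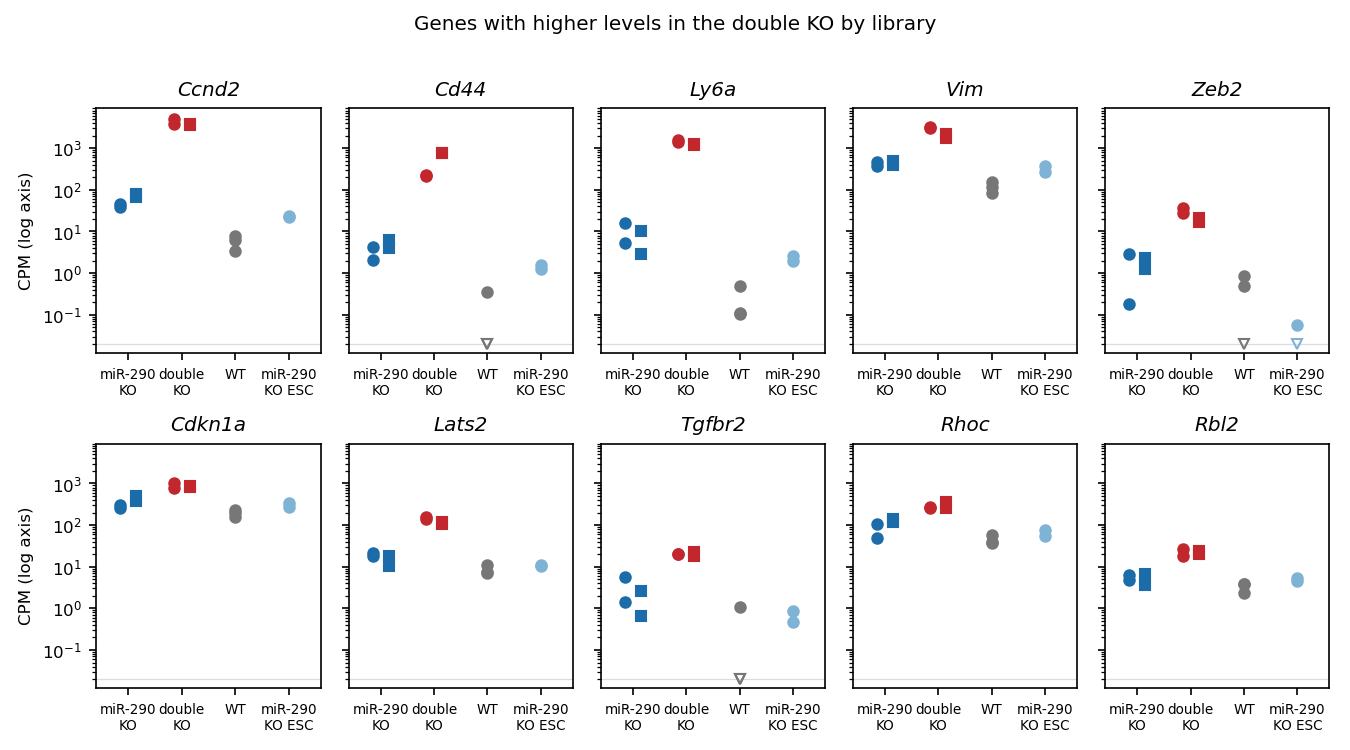
CPM (log axis) of 10 genes in each library, with groups and symbols as in the plot of pluripotent and epithelial genes. In Ccnd2, Cd44, Ly6a and Vim all double KO libraries lie far above the other groups, with Ccnd2 at 3649 to 5059 CPM, and the gap is narrower in Cdkn1a, at 778 to 1022 CPM against 253 to 502 in the miR-290 KO.

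Of 28 genes reported in the literature as direct targets of the shared seed, all measured, 13 rose (11.9% of all genes did) and 3 fell. Their median change was 1.01, beside 0.03 for all genes. In each alternative that left out a colony compared, fewer passed: 5 and 7 without double KO colony 1 or 2, and 5 without either miR-290 KO colony. The largest rise was in Ccnd2, cyclin D2, which drives G1. It was at 3885, 5059, 3649 and 3767 CPM in the double KO and at 44.7, 39.3, 79.7 and 67.0 CPM in the miR-290 KO (4090 ± 540 against 57.7 ± 22.2 CPM; 6.19, SE 0.31, adjusted p 4e-05). WT iPSC had 7.71, 6.16 and 3.40 CPM. Ccnd2 lies on chromosome 6, and with chromosome medians removed its change was 5.64. Nfib, a nuclear factor I gene whose UTR holds 2 sites, was at 481, 454, 592 and 568 CPM against 42.5, 19.08, 39.4 and 26.5 (4.09, SE 0.24, adjusted p 6.19e-05). Nr2f2, an orphan nuclear receptor, was at 75.9, 70.8, 157 and 165 CPM against 5.24, 8.63, 6.75 and 8.93 (3.88, adjusted p 0.0104).

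Targets that slow the cell cycle or growth moved in the same direction with smaller changes. Cdkn1a, the CDK inhibitor p21, was at 778, 1022, 887 and 823 CPM in the double KO and at 298, 253, 502 and 375 CPM in the miR-290 KO (1.34, SE 0.27, adjusted p 0.0106). It was not called without double KO colony 1 (1.31) or miR-290 KO colony 1 (1.01). Lats2, a kinase of the Hippo pathway, was at 144, 154, 120 and 105 CPM against 21.7, 18.3, 10.6 and 18.2 (2.95, SE 0.66, adjusted p 0.0167). Without either of the miR-290 KO colonies, or without double KO colony 1, it was not called, with changes between 2.69 and 3.21. Rbl2, the pocket protein p130, was at 18.5, 27, 24.2 and 20.5 CPM against 4.78, 6.42, 3.64 and 6.74, with no overlap (2.06, SE 0.66). It just missed the threshold (adjusted p 0.059) and passed in 11 alternatives, among them without either miR-302 KO colony. Rbl1, the related p107, rose by 0.99 (adjusted p 0.0419).

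Other targets covered adhesion, chromatin and signalling. Rhoc, a small GTPase of cell migration, was at 259, 265, 264 and 361 CPM against 49.0, 106, 136 and 119 (1.57, SE 0.31, adjusted p 0.0107). The call was lost without double KO colony 2 (1.45) or miR-290 KO colony 1 (1.16). Irf2, an interferon regulatory factor, rose by 2.71, the kinase gene Akt1 by 2.20 and Trps1 by 1.49. Mbd2, a reader of methylated DNA, was at 41.2, 25.1, 55.1 and 44.5 CPM against 29.8, 29.7, 17.9 and 42.5, with overlapping libraries (0.47, SE 0.34, adjusted p 0.352). Casp2 (0.49) and Ccnd1 (0.18) did not pass either. Dkk1, a Wnt inhibitor, fell, with 2 reads in the double KO against 187, which is 86.0 times less in CPM (95% interval 23.5 to 715, exact, counting error only).

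Across the transcriptome the shift of genes with a seed site was small beside these changes, as a description with no test. Of 11844 genes with a 3′ UTR in the GENCODE annotation of GRCm38, 17.5% hold AGCACTT, searched on the strand of the transcript, in their longest UTR. The median change was 0.01 in 9771 genes without a site, 0.15 in 1677 with 1 site and 0.22 in 396 with 2 or more. UTR length rose alongside, from a median of 951 to 2301 and 3880 bases. Within the third of genes with the longest UTRs the medians were 0.22, 0.19 and 0.22, which shows no order with the number of sites. For the site followed by A, held by 3.6% of UTRs, the median was 0.30 in 428 genes, and 0.28 in the 308 of these with long UTRs against 0.20 in long UTRs without it. The letters in reverse order, TTCACGA, held by 1.9% of UTRs, gave 0.08. Within long UTRs they gave 0.21, against 0.22 in long UTRs without them. The miR-367-3p site GTGCAAT, held by 7.5%, gave 0.23, and 0.30 within long UTRs, against 0.20 in long UTRs without it. With 2 or more of these sites the median was 0.50 in 82 genes, and 0.52 in the 73 with long UTRs. The UTRs of those 73 had a median length of 4021 bases, against 2851 in long UTRs without the site. Of the 28 literature targets, 22 had the shared site, and 11 of these rose and 2 fell.

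Genes at the G1-S boundary outside the target list also included inhibitors that rose. Cdkn2a, the Ink4a/Arf locus, was at 306, 298, 223 and 255 CPM in the double KO and at 30.4, 38.2, 18.7 and 40.9 CPM in the miR-290 KO (3.12, SE 0.65, adjusted p 0.0126). Cdkn2c, the inhibitor p18, was at 32.1, 35.2, 24.8 and 31.2 CPM against 2.00, 1.32, 1.17 and 1.25 (4.31, SE 0.58, adjusted p 0.0022), and Cdkn2d, p19, rose by 1.71. The imprinted inhibitor Cdkn1c went the other way, from 60, 118, 99.2 and 161 to 8.27, 8.62, 1.04 and 1.82 CPM (−4.84), and was not called without miR-290 KO colony 2. Cyclin D3, Ccnd3, fell by 1.05, so the D cyclins moved in different directions, with Ccnd1 not called. E2f2, a factor of S-phase entry, rose by 1.95. Of the 26 genes on the full G1-S list, 7 rose and 2 fell (median 0.72), where 11.9% of all genes rose and 12.8% fell. The 7 included Ccnd2, Cdkn1a and Rbl1, which are also on the target list. The rises came to 3 and 4 without double KO colony 1 or 2, and to 2 and 4 without miR-290 KO colony 1 or 2.

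In the Hippo pathway, a kinase cascade that restrains the transcription coactivators Yap1 and Wwtr1, 6 of 20 genes rose and none fell (median 1.00), where 11.9% of all genes rose. Wwtr1, also called Taz, was at 251, 249, 273 and 258 CPM against 88.9, 69.0, 64.5 and 84.1 (1.76, SE 0.21, adjusted p 0.00142). Lats1, the paralog of Lats2, had 30.6, 31.1, 35.8 and 30.5 CPM against 7.69, 13.2, 7.24 and 8.62 (1.82), and was not called without miR-290 KO colony 2. Tead1, the DNA-binding partner of these coactivators, rose by 1.36, Amotl2 by 1.70 and the kinase gene Stk3 by 0.98. Both kinases and effectors thus rose, while Yap1 did not pass (0.45, adjusted p 0.433). The 6 rises were 3 without double KO colony 1 or miR-290 KO colony 1 and 2 without miR-290 KO colony 2.

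Genes of p53 signalling and apoptosis rose in 9 of 21 cases and fell in none (median 0.74), where 11.9% of all genes rose and 12.8% fell. Bcl2, which protects from apoptosis, was at 71.2, 73.1, 39.8 and 44.1 CPM in the double KO and at 3.6, 1.57, 3.19 and 2.51 CPM in the miR-290 KO (4.33, SE 0.54, adjusted p 0.00158). Ccng1, a direct p53 target, was at 827, 975, 686 and 690 CPM against 164, 183, 140 and 136 (2.35, SE 0.27, adjusted p 0.00111). The p53 targets Gadd45a, Bbc3 (Puma) and Zmat3 rose by 2.27, 1.59 and 1.55, whereas Trp53 itself did not pass (−0.28, adjusted p 0.679). Other p53 targets on the list, Mdm2, Bax, Pmaip1, Sesn1 and Sesn2, did not pass either. Casp8 rose by 3.10 but was not called in 6 alternatives, among them leaving out any of the 4 colonies. The 9 rises came to 3 and 5 without double KO colony 1 or 2, and to 3 and 4 without miR-290 KO colony 1 or 2.

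**Figure D2:**
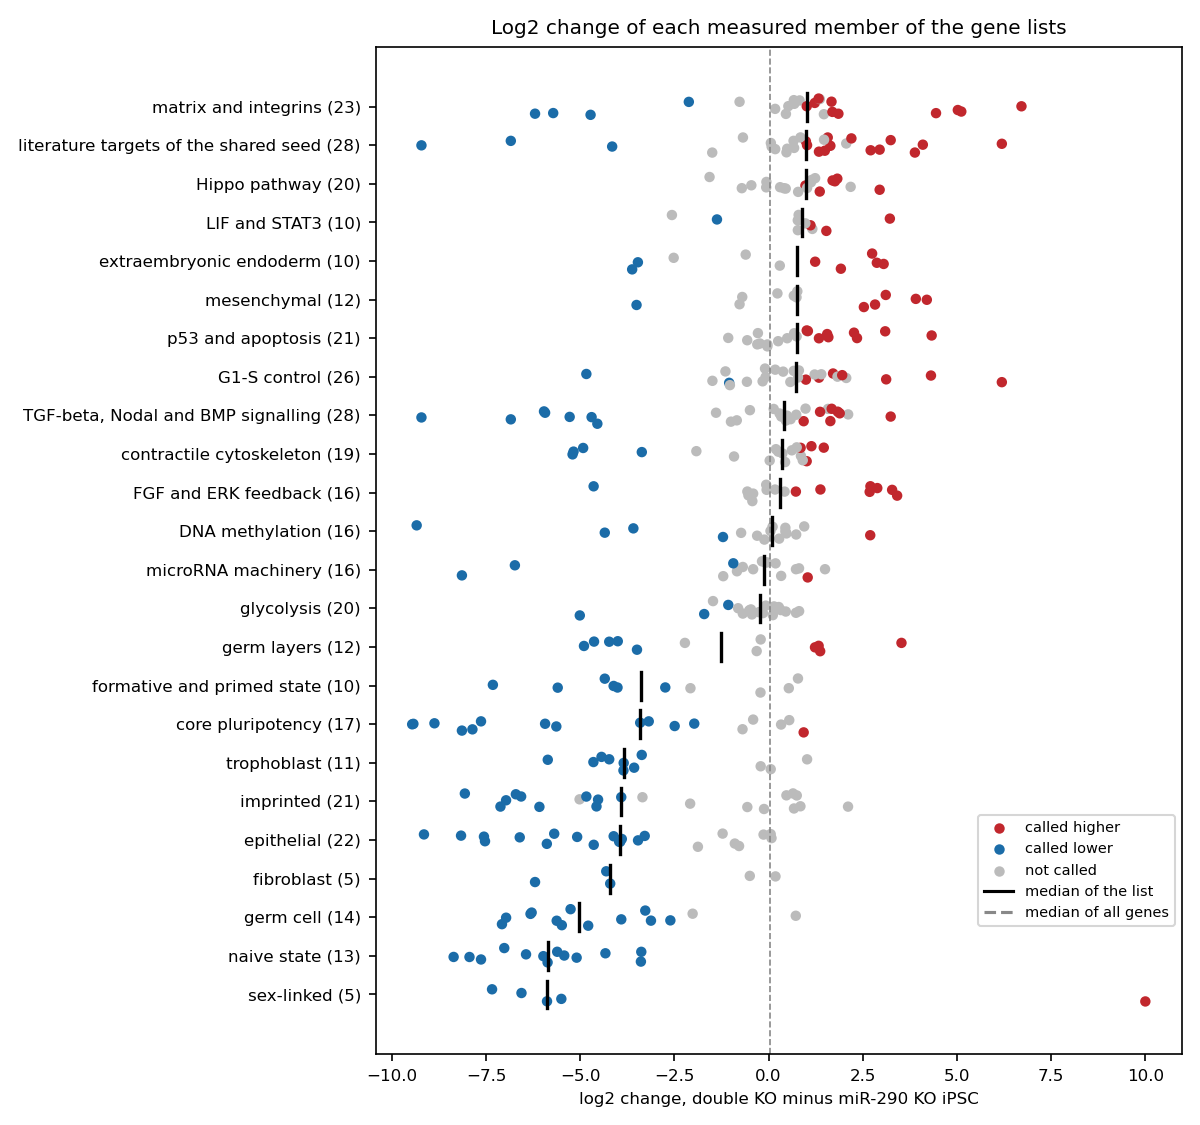
Log2 change, double KO minus miR-290 KO iPSC, of each measured member of the 24 gene lists (number measured in brackets), ordered by the list median. Red members were called higher, blue lower and grey not called, black bars are list medians, and the dashed line is the median of all genes, 0.03; lists of naive (−5.87) and germ cell genes (−5.02) lie low, and matrix, target and Hippo lists have medians of 1.00 to 1.01.

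Of 10 genes of LIF and STAT3 signalling, 3 rose and 1 fell, where 11.9% and 12.8% of all genes did. The other 6 did not pass, the feedback inhibitor Socs3 among them. Jak2, a kinase of cytokine receptors, was at 61.9, 82.8, 38.5 and 46.9 CPM against 4.60, 8.38, 4.04 and 7.21 (3.22, SE 0.37, adjusted p 0.0011), and Jak1 rose by 1.11. Stat3, which carries the LIF signal to the nucleus, was at 144, 151, 185 and 189 CPM against 80.6, 84.8, 39.5 and 39.6 (1.53, adjusted p 0.0261), and was not called without double KO colony 1 or 2 or miR-290 KO colony 2. The LIF receptor gene Lifr did not pass (0.80, adjusted p 0.0887), and the STAT3 target Pim1 fell by 1.37, not called in 3 alternatives, among them without double KO colony 2 or miR-290 KO colony 2. Among 16 genes of FGF signalling and ERK feedback, the receptor genes Fgfr1 and Fgfr2 did not pass. Of the 16, 7 rose and 1 fell, where 11.9% and 12.8% of all genes did. Those that rose were the early gene Fos, at 9.29, 8.19, 12.5 and 12.7 CPM against 2.64, 0.756, 0.728 and 0.313 (3.41, adjusted p 0.00249), the ERK phosphatases Dusp4 (3.28) and Dusp6 (2.70), the feedback inhibitors Spry4 (2.88) and Spred1 (1.38) and the ERK-induced factors Etv4 (2.68) and Etv5 (0.72). The gene that fell, Fgf15, had no reads in the double KO, at least 81.2-fold lower. The 7 rises came to 2 and 4 without double KO colony 1 or 2 and to 1 without either miR-290 KO colony.

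Germ cell genes, which naive mouse pluripotent cells express at low levels, fell in 12 of 14 cases and rose in none. Over all genes, 12.8% fell. The median of the germ cell list was −5.02. Taking the bound for the 5 genes without reads in the double KO made it −5.22. Dazl, an RNA-binding protein of germ cells, had 0 reads in the double KO and 831 in the miR-290 KO, at least 255-fold lower. Ddx4, the helicase Vasa, had 1 read against 476, a ratio of 438 (exact 95% interval 78.2 to 1.73e+04 for counting error only). The synaptonemal complex genes Sycp1 and Sycp3 had no reads and lay at least 121-fold and 22.7-fold lower. Tex19.1, a gene regulated by DNA methylation, was at 0.509, 0.503, 0.752 and 0.182 CPM against 117, 123, 55.6 and 50.1 (−7.08). With a pseudocount of 1 CPM, 7 of these genes passed.

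Imprinted genes, expressed from one parental copy, fell in 10 of 21 cases and rose in none (median −3.91), where 12.8% of all genes fell. Mest was at 0, 0.144, 1.45 and 0.424 CPM against 160, 143, 60.6 and 134 (−8.06, SE 0.71, adjusted p 0.000366). H19 and Igf2, neighbours of opposite parental expression, both fell: H19 was at 5.79, 13.8, 1.62 and 0.97 CPM against 140, 786, 456 and 792 (−6.97), and Igf2 at 0.446, 1.72, 6.59 and 14.7 CPM against 180, 815, 163 and 546 (−6.71). The placental growth gene Phlda2 fell by 6.57 and Grb10 by 4.53. Meg3, a maternally expressed noncoding RNA, was at or below 0.127 CPM in the double KO. It separated the miR-290 KO colonies, with 293 and 377 CPM in colony 1 and 3.19 and 1.88 CPM in colony 2 (−7.12, SE 1.84, adjusted p 0.0286), and it lost its call in 8 alternatives, among them without double KO colony 1 or 2 or either miR-302 KO colony.

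Markers of other lineages went both ways, where 11.9% of all genes rose and 12.8% fell. Of 12 germ layer genes, 4 rose and 5 fell. The 4 that rose were Kdr, a receptor of early mesoderm and vessels, at 14.2, 21.8, 10.2 and 5.94 CPM against 0.364, 0.945, 1.74 and 0.940 (3.53), and the neural genes Sox1 (1.37), Ncam1 (1.33) and Nes (1.23). At most 1 of these 4 passed with any of the 4 colonies left out. Pax6, which marks neural tissue too, had 3 reads against 296, a ratio of 90.8 (exact 95% interval 30.8 to 443), Tubb3, a neuronal tubulin, fell by 3.49, and the mesoderm factor T by 4.90, the latter not called without either miR-290 KO colony. Of 11 trophoblast genes, 8 fell and none rose. Gata3 was at 2.10, 1.72, 1.68 and 2.48 CPM against 41.1, 25.8, 34.8 and 22.7 (−3.85), and Krt7 fell by 5.86. Cdx2, the trophoblast master factor, again separated the double KO colonies, with 0.764 and 0.287 CPM in colony 1 and 21.3 and 22.6 in colony 2, around the miR-290 KO values of 4.10, 2.27, 6.67 and 2.19 (adjusted p 0.983). Of 10 extraembryonic endoderm genes, 5 rose, 2 fell (Amn by 3.47, and Gata4) and 3 did not pass. Amn, a membrane protein of visceral endoderm, was not called without double KO colony 1 or without either of the miR-290 KO colonies. Of those that rose, Col4a1, Col4a2, Lamc1 (1.92) and Sparc (1.24) are made by many cell types for their matrix. The other, the receptor gene Pth1r, stood 2.38 to 3.17 above the miR-290 KO mean in the double KO libraries on the log2 scale. The defining factor Gata4 had no reads in the double KO, at least 42.0-fold lower, though not called without double KO colony 1 or 2 or miR-290 KO colony 1.

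Of 20 glycolysis genes, 3 fell and none rose (median −0.22), where 12.8% of all genes fell. Pfkp, the platelet form of phosphofructokinase, was the exception in size, at 0.7, 1.22, 1.45 and 0.545 CPM against 38.8, 34.7, 31.1 and 31.8 (−5.01). Pfkm (adjusted p 0.0438) and Aldoa (−1.71) also fell, but were not called in 9 and 4 alternatives, among them without double KO colony 1, miR-290 KO colony 1 or miR-290 KO colony 2.

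Sex-linked genes differed between the groups in every library. Xist, the noncoding RNA that coats the inactive X chromosome, was at 613, 648, 666 and 643 CPM in the double KO and at 0, 0.252, 4.37 and 0.470 CPM in the miR-290 KO (10, SE 1.15, adjusted p 0.00107). WT iPSC had 0 reads. The Y-linked Ddx3y was at 0, 0.287, 0.173 and 0.242 CPM in the double KO against 50.1, 40.0, 48.0 and 52.6 (−7.34), and Eif2s3y and Uty, also on the Y chromosome, fell by 6.56 and 5.88. Tsix, transcribed antisense to Xist, fell by 5.50. The labels do not give the sex of the embryos, and a difference in sex chromosomes between the lines and the genotype cannot be told apart here. Without the genes on X and Y, 3021 genes were called.

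Some chromosomes differed as a whole. The median change was 0.55 for genes on chromosome 6, of which 25.0% rose, and −0.49 for genes on chromosome 8, of which 22.7% fell. Relative to the WT mean, chromosome 6 stood at 0.61 and 0.70 in double KO colonies 1 and 2 and at 0.15 and 0.12 in the miR-290 KO colonies. For chromosome 8, it was the miR-290 KO colonies that stood apart, at 0.45 and 0.40 against −0.12 and −0.05 in the double KO. Single colonies differed on chromosome 2 (0.61 in double KO colony 1) and chromosome 18 (0.64 in miR-290 KO colony 2). Removing each chromosome's median from the changes gave 3231 calls, 2879 of them among the 3154.

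**Figure D3:**
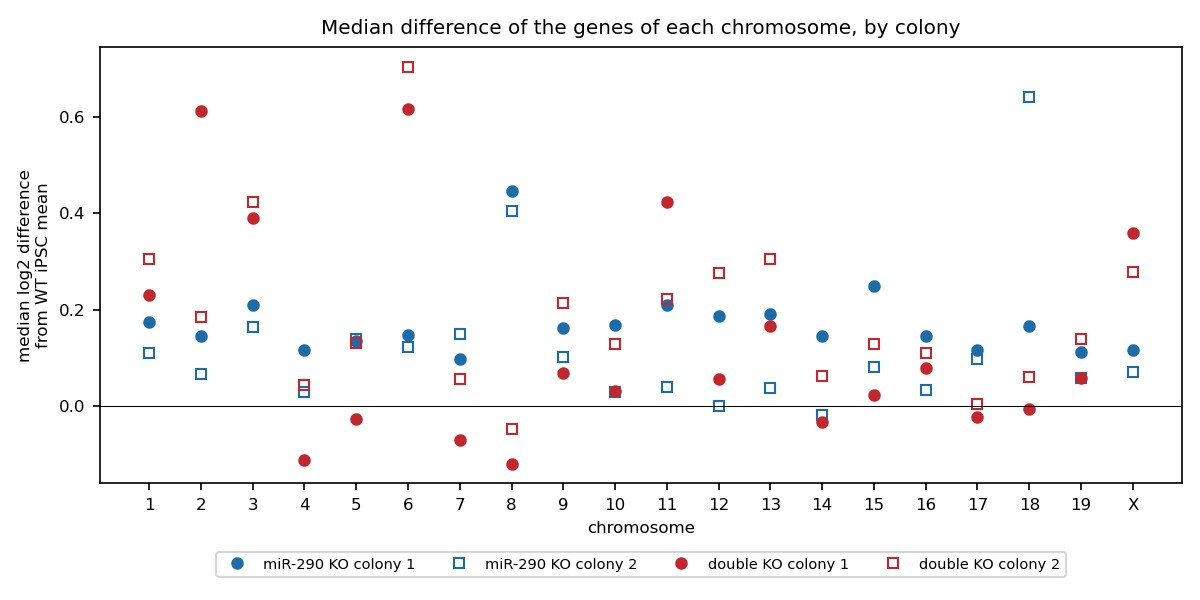
Median log2 difference from the WT iPSC mean over the genes of each chromosome, for each miR-290 KO colony (blue) and double KO colony (red). Chromosome 6 is high in both double KO colonies (0.61 and 0.70) and chromosome 8 in both miR-290 KO colonies (0.45 and 0.40), while chromosomes 2 and 18 are high in 1 colony each.

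The double KO colonies also differed from each other. Their median absolute difference over genes was 0.31, against 0.39 between the miR-290 KO colonies. Yet 200 genes differed by at least 3 on the log2 scale between the double KO colonies, and 49 between the miR-290 KO colonies. Cdh1, Timp3, Spp1 and Cdx2, given above, were higher in double KO colony 2 in both of its libraries. With 1 value per colony these differences have no test.

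The same deletion was then set beside its effect in cells with miR-290, as miR-302 KO minus WT iPSC. All 6 KO colonies entered the spread of both tests, but the groups of this contrast share no sample with those compared above. There 3 genes were called (Rftn2, Myof and Emd) and 1785 had an unadjusted p under 0.05, against 4834 in the absence of miR-290. None of the members of the 24 lists was called. The median absolute change of the 3154 genes was 2.55 without miR-290 and 0.41 with it. These genes were selected by their change without miR-290, which favours the larger value there. Of them, 51.1% had the same sign in both, close to the 48.6% of all genes. A test of the difference between both effects, over the 6 colonies and the WT libraries, called 2773 genes (21.7%), 1399 upward and 1374 downward. Of the 3154 genes, 2209 (70.0%) were called in it with the same sign, which is 79.7% of its calls. The double KO and miR-290 KO colonies enter both tests, so much of this overlap follows from the design and is no separate support. Leaving out miR-290 KO colony 2 or double KO colony 1 lowered its calls to 1594 or 1781. Leaving out colony 1 or 2 of the miR-302 KO gave 1882 or 3725.

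Apart from those 3, no gene described here was called with miR-290 present, though some had changes there of over 1 on the log2 scale, such as Zeb2 (−1.65) and Cd44 (1.12). Nanog changed by −0.39 there and the difference between backgrounds was −7.24 (adjusted p 2.42e-06). For Pou5f1 the change was 0.62 (SE 0.35, adjusted p 0.428) and the difference −6.26 (adjusted p 3.42e-05). Ccnd2 changed by −0.05 with miR-290 present, and its difference was 6.24. Over the naive list, 12 of 13 genes were called lower in the test of the difference and the median with miR-290 present was −0.03. Of the literature targets, 12 of 28 were called higher and 3 lower in it, with a median of −0.14 when miR-290 was present. Rbl2, not called in the first comparison, passed here (2.75, adjusted p 0.0372). Tgfbr2 did not (3.51, adjusted p 0.1).

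**Figure D4:**
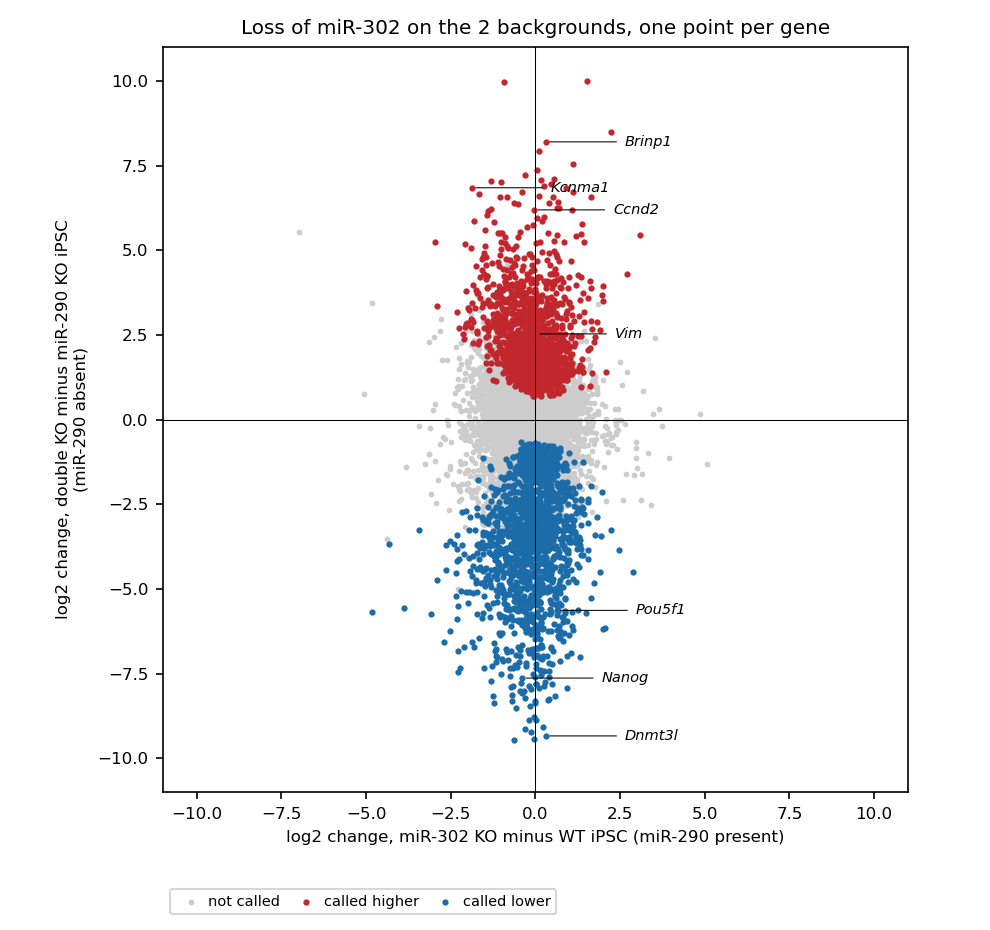
Log2 change on losing miR-302 with miR-290 present (x axis, miR-302 KO minus WT iPSC) and absent (y axis, double KO minus miR-290 KO iPSC), one point per gene. Genes called in the double KO comparison are red (higher) or blue (lower); they reach from −9.46 to 10 on the y axis and lie around 0 on the x axis, as with Nanog at −7.63 and −0.39.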

How the data were processed

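Total RNA (200 ng) from each library was made into QuantSeq 3′ libraries and sequenced as single-end reads of 50 bases, per the labels' protocols. The submitters' processing notes name Trim Galore 0.66, STAR, Salmon 1.4.0, limma, DESeq2 1.34.0 and build mm10, with no order; how multiply mapped reads were treated is not given in the sources used here. The authors' deposited matrix holds log2 values for 12778 genes, read from the values as log2 CPM with a small prior and a constant shift per gene. For 12234 genes (95.7%), 1 constant per gene gave whole reads in at least 13 libraries (tolerance 0.02 read), and 99.7% of their values were whole. CPM is these reads over the authors' scaled total; the other 544 genes have log2 differences only. In the matrix, 6 columns that match no sample were not used, and 19 gene names read as dates. The authors' deposited comparison tables were not used.

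The log2 values of a colony's libraries were averaged and the 6 KO iPSC colonies fitted with limma 3.58.1 (R 4.3.3), leaving 3 residual degrees of freedom, with the spread moderated across genes along a trend on level. The test of the difference between backgrounds added 3 WT libraries. p-values of the first comparison measure the spread between colonies. Those of the fit with WT also take in the spread between WT libraries, which may share a derivation. Floors (3 reads over a group) and exact (Clopper-Pearson) intervals cover counting error only. Antisense pairs such as Tsix and Xist rest on the strand setting of the authors' counting, which is not stated. Named genes were the 10 largest rises and falls without overlap, up to 3 called members per list, a fixed set of 20 genes, and the 3 largest departures each way in the test between backgrounds. Other genes in the text were chosen after their values were seen, for their known roles. The 8 libraries are those the labels give for both genotypes; this comparison and the gene lists were chosen with earlier results of these data known. Alternatives covered scaling, filters, spread, voom on recovered reads, sample weights and left-out colonies and libraries; the chromosome correction and the leaving out of miR-302 KO colonies in the first comparison were chosen after seeing the data. Tables were handled in Python 3.11.15 with pandas 2.3.3, numpy 2.4.6 and scipy 1.17.1. A few members of the lists are counted but not reported here by name.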

Additional observations from a re-analysis of the deposited data

Results flagged for a closer look

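In these groups of 4 libraries, 1 library stood far from the other 3, as its gap to the nearest divided by the group's range on the log2 scale. Chance flags about 1 in 20 groups. In the miR-290 KO this ratio was 1.0 for Sprr2a2 and for Pcdha7-g, 0.914 for Sprr2a1, 0.905 for Fabp3 and for Foxd3, 0.922 for Tet1 and 0.904 for Kcnma1. In the double KO it was 1.0 for T, Thy1 and Cnn1, each near the floor, 0.936 for Hand1, 0.931 for Rhoc, 0.875 for Lats1 and 0.831 for Pou3f1. For Rhoc the library was colony 2 library 2, at 361 CPM against 259 to 265 in the others.

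The effect of losing miR-302 differed between cells without and with miR-290, in the limma test of the difference itself, in the following genes, as log2 differences. Those lower without miR-290 were Dnmt3l (−9.64), Utf1 (−9.37), Rex2 (−9.31), Lefty2 (−9.09), Lin28a (−7.45), Nanog (−7.24), Pou5f1 (−6.26), Lefty1 (−6.11), Dnmt3b (−3.94), Klf4 (−3.87), Eif2s3y (−3.87), Epcam (−3.47), Sox2 (−3.33) and Cdh1 (−3.31). Those higher were Sprr2a2 (10.9), Kcnma1 (8.72), Xist (8.48), Lats2 (3.85), Rbl2 (2.75), Vim (2.52), Rhoc (1.39) and Cdkn1a (1.23). For Xist and the Y-linked Eif2s3y, a difference in sex chromosomes between the lines and the genotype cannot be told apart. The libraries of each miR-302 KO colony also differed in the Y-linked Ddx3y. Kcnma1, a potassium channel, was at 48.8, 22.1, 49.1 and 60.2 CPM in the double KO and at 0.137, 0.126, 0.687 and 0.157 CPM in the miR-290 KO.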

How the results depend on the processing

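The number of genes called in the double KO against the miR-290 KO ran from 1375 to 3496 with 1 colony or library left out, and in the test between backgrounds from 1594 to 3725. Libraries taken as independent samples gave 4634 in the former, and a spread without trend 2671. With the colony number as a replicate block, the numbers were 2481 and 2446. The colony numbers do not pair the samples. Over genes, the colony 1 minus colony 2 differences of the double KO and the miR-290 KO had a correlation of −0.028. Under that block, 2 named calls were lost. Of 92 genes named by the rule, 90 were called, 62 of them under every alternative run, and 28 lost the call in at least 1. Those lost in over 5 were Meg3, Tnrc6b, Casp8, Pfkm, Cdh1, Spp1 and Pdgfrb, and none of the 92 changed direction. The cause of lost calls was not tested, except that leaving out a colony leaves a single one in that group, assumed to vary like the others. With 2 colonies a group and floors of 0.0473 and 0.0435 CPM, changes of genes near the floor depend on the prior.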
